A study of Mus musculus with 8 samples.

Results

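The type I interferon response genes are transcripts that cells switch on after interferon alpha or beta binds its receptor. A list of 33 gene symbols defined them, by name and with no threshold on measured values, though it was drawn up with earlier results of these data known. Of these, 29 had a transcript cluster of their own (a set of array probes read as 1 gene) among the 24111 clusters on the array, of which 21508 carried 1 symbol, 566 several and 2037 none. Oas1a shared its cluster with Oas1g and was not used, and Ifi44, Eif2ak2 and Dtx3l were not analysed here.

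The genes were read in sorted mast cells (MC) of C57BL/6J mice, all of which carried subcutaneous tumors of the mouse pancreatic carcinoma line Panc02. Once tumors had reached 100 mm3, mice were given placebo or 40 mg/kg DC101, an antibody that blocks mouse VEGFR2 and so the growth of tumor vessels. MC were sorted from the tumors, or from peritoneal lavage of the tumor-bearing mice, by DAPI, CD45, CD11b, CD117 and FceRI. This gave 4 groups (tumor or peritoneum, placebo or DC101) of 2 Affymetrix Mouse Gene 2.1 arrays each, 8 arrays in all. The labels do not state whether the arrays of a group came from separate mice or pools, and the p-values therefore reflect array-to-array spread alone, which may be technical.

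Values were log2 expression values made with RMA, which sets all arrays to 1 common distribution and gives no detection call. A log2 difference of 1 is a doubling, and levels of different genes are not comparable. Differences, standard errors (SE) and p-values came from limma fitted to all 24111 clusters, with Benjamini-Hochberg adjustment over all of them, and a gene was called at an adjusted p under 0.05. Array medians lay between 3.34 and 3.46. Correlations over all clusters were 0.974 to 0.986 within a group and 0.879 to 0.905 across compartments, so tumor and peritoneal MC were the main division. Mast cell markers were high on every array, with array medians over 12 markers of 8.48 to 10.28. Kit, the CD117 gene used in the sort, read 8.96 to 10.20. Markers of other cells were also measured. In tumor MC, 8 markers of epithelial cells and fibroblasts had array medians of 6.77 to 7.34, with Krt18 at 9.50 to 10.11 and Dcn at 10.77 to 10.84. With placebo, 6 of the 8 were higher in tumor than in peritoneal MC, and 2 (Epcam and Cdh1) were lower. In peritoneal MC, B cell markers had array medians of 7.87 to 8.89, against 2.78 to 3.501 in tumor MC. Macrophage markers had medians of 7.76 to 9.60 in peritoneal and 6.52 to 7.44 in tumor MC. Neutrophil markers had medians of 7.07 to 8.46 and 4.94 to 6.14. A sort on CD45, CD117 and FceRI should remove these cells, and the source of the transcripts was not tested. In such bulk samples, fewer cells of a type and less RNA per cell cannot be told apart.

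Type I interferons bind the receptor formed by Ifnar1 and Ifnar2, whose kinases are Tyk2 and Jak1. Signalling assembles the factor ISGF3, of which Stat2 and Irf9 are subunits, and ISGF3 binds the interferon-stimulated response element (ISRE) at the promoters of the response genes. The products sense viral nucleic acid, block viral replication, tag proteins with Isg15, or feed back on the pathway, as Irf7 and Usp18 do. MC respond to type I interferon and can make it when they sense viral RNA.

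The core of the ISRE can be read in the promoters. The window from 250 bases before to 50 after the annotated start (RefSeq, GRCm38.p6) was found for 24 of the 33 genes. It held the motif GAAANNGAAA on either strand in 12 of the 24 (50%), against 1079 of 27025 genes (3.99%). Among 58 other interferon-stimulated genes with a window, 34 held it (58.6%), and among 17 type I interferon genes themselves, 11 did (64.7%). Promoters are shown for 8 genes, which are the measured genes with a match wholly before the start. Matches in the windows of Ifih1 and Ddx58 began after the start, at positions 33 and 3, and are not shown. The 8 include the largest tumor-to-peritoneum differences (Ifit1, Rsad2, Isg15) and the gene called lower in tumor MC (Trim30a). Oas3 and Stat2 had no call between compartments. The sequences are written 5′ to 3′ in the direction of the gene, with the motif matches in capitals. A match on the opposite strand reads TTTCNNTTTC. Matches overlap in Isg15, which has 3, and in Bst2, which has 2. The stretches are chr19:34640760-34640838 on the plus strand for Ifit1, chr19:34583348-34583441 (plus) for Ifit3, chr4:156200850-156200921 (minus) for Isg15, chr12:26456538-26456597 (minus) for Rsad2, chr5:120777700-120777759 (minus) for Oas3, chr8:71537562-71537627 (minus) for Bst2, chr10:128270251-128270310 (plus) for Stat2 and chr7:104465195-104465254 (minus) for Trim30a.
Ifit1: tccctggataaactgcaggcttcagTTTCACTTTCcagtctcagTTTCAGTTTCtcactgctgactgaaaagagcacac
Ifit3: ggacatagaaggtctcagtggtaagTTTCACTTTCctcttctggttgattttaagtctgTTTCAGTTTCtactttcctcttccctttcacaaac
Isg15: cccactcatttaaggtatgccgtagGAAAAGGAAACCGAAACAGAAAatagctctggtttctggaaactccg
Rsad2: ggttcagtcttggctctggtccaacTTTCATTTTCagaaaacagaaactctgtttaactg
Oas3: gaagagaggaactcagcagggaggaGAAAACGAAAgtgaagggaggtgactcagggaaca
Bst2: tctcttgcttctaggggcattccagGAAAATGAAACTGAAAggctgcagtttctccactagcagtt
Stat2: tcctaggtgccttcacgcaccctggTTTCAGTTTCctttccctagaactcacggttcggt
Trim30a: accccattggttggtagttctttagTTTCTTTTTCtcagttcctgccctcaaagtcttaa
Windows of Ifit2, Cmpk2, Oasl1, Oasl2, Irf7, Irf9, Xaf1, Herc6, Ifi35 and Samd9l held no match, which says only that these letters are not in this window. A match is a description of sequence and not a binding site.

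The first comparison was of tumor with peritoneal MC, within placebo and within DC101. Ifit1, Rsad2, Isg15 and Ifit2 stood far higher in tumor MC, with differences of 2.53 to 4.12 on the log2 scale over both treatments, while others of the 29 genes, such as Mx1 and Oas2, had values below 0 and were not called. In placebo-treated mice, 10 of the 29 genes were called higher in tumor MC and 1 lower, against 11.3% and 8.29% of all clusters. In DC101-treated mice, 17 were called higher and 0 lower, against 12.4% and 9.54% of all clusters. The median difference of the 29 genes was 0.66 with placebo and 1.26 with DC101, against −0.01 and −0.03 over all clusters. Values were above 0 for 20 genes with placebo (48.7% of all clusters) and for 23 with DC101 (47.8% of all clusters). The 9 genes called higher in both treatments were 9 of 10 in the placebo list and 9 of 17 in the DC101 list. Left out one at a time, no array removed the call of Isg15, Ifit1, Ifit2, Rsad2, Ifih1 or Cmpk2 in either treatment. The count of called genes ran from 7 (without either peritoneal placebo array) to 13 (without tumor placebo replicate 1) with placebo, and from 12 (without tumor DC101 replicate 1) to 19 (without either tumor placebo array) with DC101. The placebo median was 0.31 without tumor placebo replicate 2 and 0.99 without replicate 1. Replicate 1 had the lowest tumor value for 26 of the 29 genes. Over all clusters, it correlated with the other tumor arrays at 0.981 to 0.985.

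**Figure D1:**
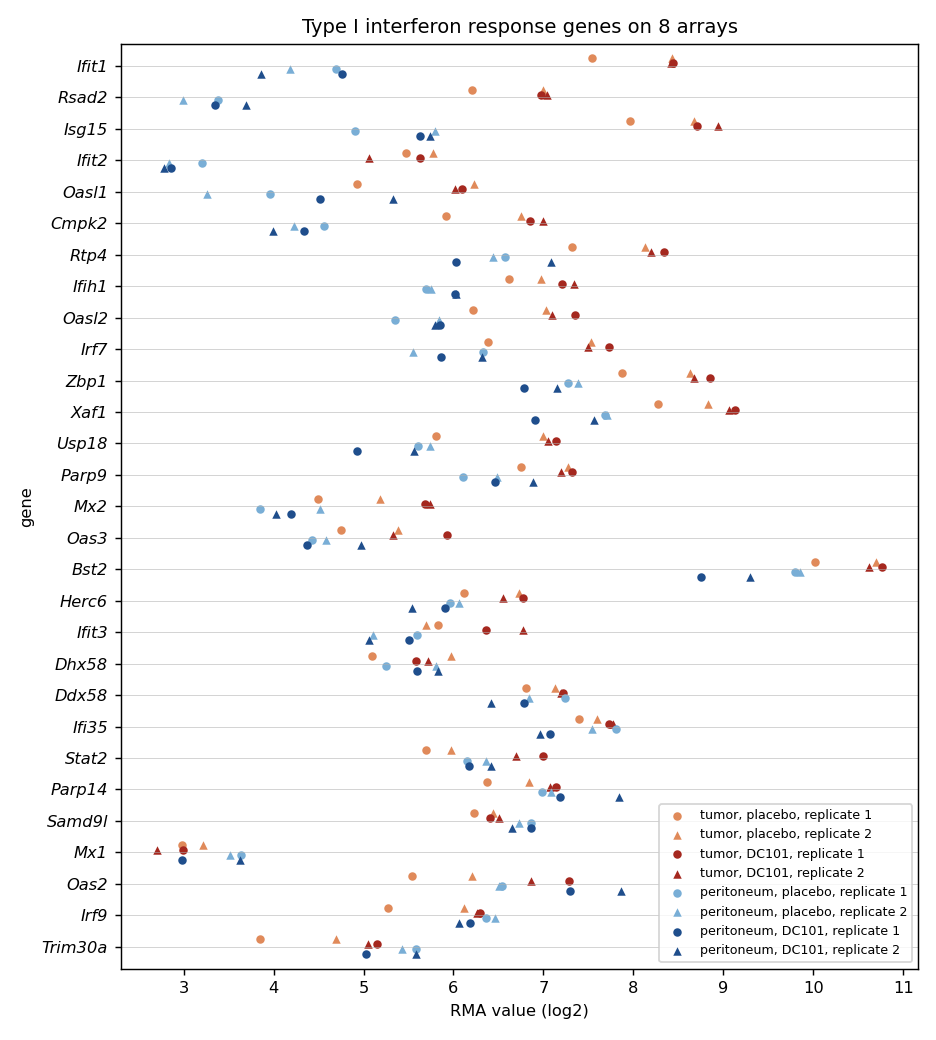
RMA values (log2, horizontal axis) of the 29 measured genes (vertical axis) on each of the 8 arrays, ordered by the tumor minus peritoneum difference with placebo. Circles are replicate 1 and triangles replicate 2. For Ifit1 all 4 tumor arrays lie at 7.54 or above and all 4 peritoneal arrays at 4.76 or below, while for Trim30a the placebo-treated tumor arrays (3.85 and 4.69) are the lowest.

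The IFIT proteins bind foreign RNA and block its translation, and Ifit1 had the largest tumor minus peritoneum difference of the 29 genes. It read 7.54 and 8.43 on the tumor placebo arrays, 8.44 and 8.42 with DC101, and in peritoneal MC 4.69 and 4.18 with placebo and 4.76 and 3.86 with DC101. Its tumor minus peritoneum difference was 3.55 (SE 0.37, 11.7-fold, limma adjusted p = 0.00018) with placebo and 4.12 (SE 0.37, 17.4-fold, adjusted p = 6.5e-05) with DC101. No peritoneal array came near a tumor array. Ifit2 read 5.47 and 5.77 with placebo and 5.63 and 5.06 with DC101 in tumor MC, and 3.20 and 2.84 with placebo and 2.86 and 2.78 with DC101 in peritoneal MC. Differences for Ifit2 were 2.60 (SE 0.25, 6.05-fold, adjusted p = 0.00012) and 2.53 (SE 0.25, 5.77-fold, adjusted p = 0.00012), and its peritoneal values lay below the median cluster (3.48). Ifit3 had tumor values of 5.83 and 5.70 with placebo and 6.36 and 6.78 with DC101, and peritoneal values of 5.59 and 5.10 with placebo and 5.51 and 5.06 with DC101. With DC101 it was called, at 1.29 (SE 0.26, adjusted p = 0.0066), a call lost without tumor DC101 replicate 2 (adjusted p = 0.060), and with placebo it was at 0.42 (SE 0.26, adjusted p = 0.34). The 3 genes are close paralogs, so probes may read more than 1 of them and single values are uncertain.

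Rsad2 encodes viperin, which makes a nucleotide that ends viral RNA chains, and its genomic neighbour Cmpk2 encodes a mitochondrial nucleotide kinase. Rsad2 read 6.21 and 6.99 with placebo and 6.97 and 7.04 with DC101 in tumor MC, against 3.38 and 2.99 with placebo and 3.35 and 3.69 with DC101 in the peritoneum, of which 3 values lay below the median cluster. It differed by 3.41 (SE 0.29, 10.6-fold, adjusted p = 5.1e-05) and 3.49 (SE 0.29, 11.2-fold, adjusted p = 4.2e-05). For Cmpk2 the tumor arrays gave 5.92 and 6.75 with placebo and 6.85 and 6.99 with DC101, and the peritoneal arrays 4.56 and 4.22 with placebo and 4.34 and 3.99 with DC101. The difference was 1.94 (SE 0.29, adjusted p = 0.0016) with placebo and 2.76 (SE 0.29, adjusted p = 0.00018) with DC101. Both genes separated the compartments on every array.

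The Isg15 system attaches a ubiquitin-like tag to proteins. Isg15 itself read 7.96 and 8.67 with placebo and 8.71 and 8.94 with DC101 in tumor MC, and 4.90 and 5.80 with placebo and 5.63 and 5.74 with DC101 in the peritoneum, so that tumor and peritoneal arrays did not overlap. It was 7.82-fold higher with placebo (2.97, SE 0.33, adjusted p = 0.00027) and 8.81-fold higher with DC101 (3.14, SE 0.33, adjusted p = 0.00017). Herc6, the main ligase for Isg15 in mice, differed less, with 6.12 and 6.73 (placebo) and 6.77 and 6.55 (DC101) in tumor MC against 5.96 and 6.06 (placebo) and 5.91 and 5.54 (DC101) in the peritoneum. It was called with DC101 (0.94, SE 0.25, adjusted p = 0.026), a call lost when any 1 of 3 arrays was left out, and not with placebo (0.42, adjusted p = 0.32). Usp18, which removes Isg15 and also damps the receptor, read 5.80 and 6.99 with placebo and 7.14 and 7.05 with DC101 in tumor MC, and 5.61 and 5.74 with placebo and 4.93 and 5.56 with DC101 in the peritoneum. Its difference was 0.72 (SE 0.37, adjusted p = 0.23) with placebo and 1.85 (SE 0.37, adjusted p = 0.0062) with DC101, a call lost at an adjusted p of 0.0505 without peritoneal DC101 replicate 1.

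Among sensors of nucleic acid, Ifih1 (MDA5, which binds long double-stranded RNA) read 6.62 and 6.97 with placebo and 7.21 and 7.34 with DC101 in tumor MC, and 5.70 and 5.75 with placebo and 6.02 on both DC101 arrays in the peritoneum. Differences of 1.07 (SE 0.20, adjusted p = 0.0051) and 1.26 (SE 0.20, adjusted p = 0.0019) were both called. Zbp1, a sensor of Z-form nucleic acid that can start cell death, read 7.87 and 8.63 with placebo and 8.86 and 8.67 with DC101 in tumor MC, and 7.28 and 7.38 with placebo and 6.79 and 7.15 with DC101 in the peritoneum. It differed by 0.92 (SE 0.27, adjusted p = 0.043) with placebo and 1.80 (SE 0.27, adjusted p = 0.0014) with DC101. The placebo call of Zbp1 was lost in 5 of the 8 fits that left out 1 array. Of the related RNA sensors, Ddx58 (RIG-I) was at −0.08 with placebo and 0.61 (95% interval 0.08 to 1.14) with DC101 and Dhx58 (LGP2) at 0.00 and −0.06, none of them called.

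The oligoadenylate synthetase family, which activates RNA decay, divided among its members. Oasl1, which in mice limits Irf7 translation, read 4.92 and 6.23 with placebo and 6.10 and 6.01 with DC101 in tumor MC, and 3.96 and 3.26 with placebo and 4.52 and 5.33 with DC101 in the peritoneum. It was called with placebo at 1.97 (SE 0.44, adjusted p = 0.012), a call lost without replicate 2 of either placebo group, and stood at 1.13 (SE 0.44, adjusted p = 0.11) with DC101. Oasl2 read 6.21 and 7.03 with placebo and 7.35 and 7.09 with DC101 in tumor MC, against 5.35 and 5.84 with placebo and 5.85 and 5.80 with DC101 in the peritoneum. Its differences were 1.02 (SE 0.29, adjusted p = 0.038) and 1.39 (SE 0.29, adjusted p = 0.0082), and the placebo call held in 2 of the 8 fits without 1 array and the DC101 call in 7. Oas2 had both peritoneal arrays above both tumor arrays in each treatment and was not called (−0.65 with placebo, adjusted p = 0.17, and −0.51 with DC101, adjusted p = 0.29). Oas3 was at 0.57 and 0.96, also without a call. Paralogs of this family share sequence, and single values carry the same caution as the IFIT genes.

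Irf7, the interferon regulatory factor that amplifies the response, read 6.38 and 7.53 with placebo and 7.73 and 7.49 with DC101 in tumor MC, and 6.33 and 5.54 with placebo and 5.86 and 6.32 with DC101 in the peritoneum. It was called with DC101 at 1.52 (SE 0.39, adjusted p = 0.022) and not with placebo at 1.02 (SE 0.39, adjusted p = 0.11), and the DC101 call was lost when any 1 of 3 arrays was left out. The ISGF3 subunits Stat2 and Irf9 were not called in either treatment. Stat2 was at −0.42 with placebo and 0.55 with DC101, and Irf9 at −0.72 and 0.15. For both genes the tumor arrays lay below the peritoneal arrays with placebo and above them with DC101.

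Bst2, Xaf1 and Mx2 were called with DC101 and not with placebo, and the difference between the treatments was not called for them (interaction adjusted p = 0.25, 0.30 and 0.38 in limma). Bst2 (tetherin, which holds budding virus at the membrane) read 10.02 and 10.70 with placebo and 10.77 and 10.62 with DC101 in tumor MC, and 9.80 and 9.86 with placebo and 8.76 and 9.30 with DC101 in the peritoneum. The difference was 1.66 (SE 0.27, adjusted p = 0.0023) with DC101 and 0.53 (adjusted p = 0.24) with placebo. Bst2 is also a marker of plasmacytoid dendritic cells, of whose 7 other markers 3 were lower and 0 higher in tumor MC with placebo, and 1 lower and 0 higher with DC101.

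Xaf1, a promoter of apoptosis, read 8.28 and 8.83 with placebo and 9.13 and 9.07 with DC101 in tumor MC, and 7.69 and 7.71 with placebo and 6.91 and 7.56 with DC101 in the peritoneum. It was at 1.86 (SE 0.27, adjusted p = 0.0011) with DC101 and 0.86 (SE 0.27, adjusted p = 0.056) with placebo. Mx2, a dynamin-like GTPase, read 4.50 and 5.19 with placebo and 5.68 and 5.74 with DC101 in tumor MC, and 3.85 and 4.52 with placebo and 4.19 and 4.02 with DC101 in the peritoneum. Its values were 1.60 (SE 0.29, adjusted p = 0.0040) and 0.66 (SE 0.29, adjusted p = 0.17). The related Mx1, which C57BL/6 mice carry in a defective form, lay below the median cluster on average and was not called (−0.48 and −0.46).

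Rtp4, a chaperone of membrane receptors, read 7.32 and 8.13 with placebo and 8.34 and 8.20 with DC101 in tumor MC, and 6.58 and 6.44 with placebo and 6.03 and 7.09 with DC101 in the peritoneum. Calls at 1.22 (SE 0.37, adjusted p = 0.047) and 1.71 (SE 0.37, adjusted p = 0.0090) were each lost in some fits without 1 array, 5 of 8 with placebo and 2 of 8 with DC101. Ifi35, an interferon-induced leucine zipper protein, read 7.40 and 7.59 with placebo and 7.73 and 7.78 with DC101 in tumor MC, and 7.80 and 7.54 with placebo and 7.07 and 6.96 with DC101 in the peritoneum. It was called with DC101 at 0.74 (SE 0.20, adjusted p = 0.026), in 4 of 8 fits without 1 array, and stood at −0.18 with placebo. Trim30a, which restrains Toll-like receptor signalling in mice, was the gene called lower. Its tumor values were 3.85 and 4.69 with placebo and 5.15 and 5.05 with DC101, and its peritoneal values 5.58 and 5.42 with placebo and 5.03 and 5.59 with DC101. The difference with placebo was −1.23 (SE 0.30, adjusted p = 0.020), lost without tumor placebo replicate 1 or either peritoneal placebo array, and with DC101 it was −0.21 (adjusted p = 0.71). Parp9 (0.72 and 0.58), Parp14 (−0.42 and −0.41), members of the ADP-ribosyltransferase family, and Samd9l (−0.46 and −0.30), an antiviral growth inhibitor, were not called.

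**Figure D2:**
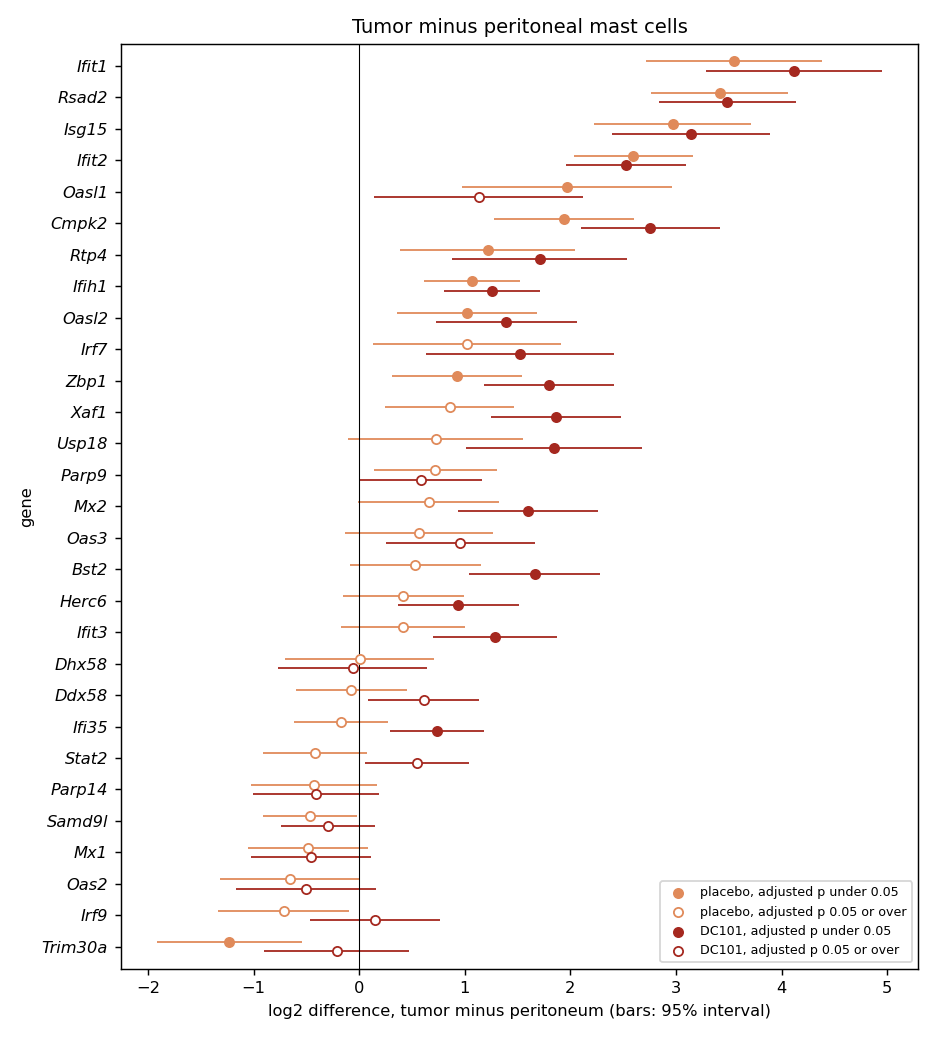
Tumor minus peritoneum log2 difference (horizontal axis) for each of the 29 genes (vertical axis), with placebo and with DC101, and 95% intervals from limma. Filled points passed an adjusted p of 0.05. Ifit1, Rsad2, Isg15 and Ifit2 lie at 2.53 or above in both treatments, and the gene called lower is Trim30a at −1.23 with placebo.

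The pathway around these genes was mixed. Over all clusters, 11.3% were called higher in tumor MC and 8.29% lower with placebo, and 12.4% and 9.54% with DC101. Ifnb1, interferon beta, read 3.54 and 5.35 with placebo and 5.40 and 5.45 with DC101 in tumor MC, and 1.71 and 1.59 with placebo and 1.14 and 1.71 with DC101 in the peritoneum. It was higher in tumor MC by 2.80 (SE 0.48, adjusted p = 0.0034) with placebo and by 4.0 (SE 0.48, adjusted p = 0.00038) with DC101, from peritoneal values well below the median cluster (3.48), which leaves their size uncertain. Of 14 measured type I interferon genes, Ifnb1 was the 1 called higher and 2 (Ifna4 and Ifnk) were called lower in both treatments. Tumor values of Ifnk (2.77 to 3.16) lay below the median cluster. The receptor chain Ifnar1 was not called (0.78, adjusted p = 0.095, and −0.39, adjusted p = 0.41), and Ifnar2 was lower with DC101 (−0.84, adjusted p = 0.011) and at −0.59 (adjusted p = 0.057) with placebo. Of the kinases, Jak1 was not called (−0.21 and 0.07) and Tyk2 was lower in both treatments (−1.49, adjusted p = 0.0027, and −1.24, adjusted p = 0.0063).

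Of 23 receptor and signalling genes, 4 were called higher and 8 lower with placebo, against 11.3% and 8.29% of all clusters. With DC101, 4 were higher and 9 lower, against 12.4% and 9.54% of all clusters. Those higher in both treatments were Irf1, Socs1, Socs3 and Ube2l6, of which the SOCS genes are feedback inhibitors of cytokine receptors and Ube2l6 is the conjugating enzyme for Isg15. Irf1 differed by 1.54 and 1.61 and Socs3 by 2.41 and 1.59. The lowest values of the 23 were −2.67 with placebo, for Irf8, and −1.99 with DC101, for Ptpn6. Irf2 also lay lower in tumor MC, at 6.71 to 6.98 on the tumor arrays and 8.58 to 8.72 on the peritoneal arrays. Of 12 sensors and adaptors upstream of interferon, 1 was higher and 4 lower with placebo, and 1 higher and 3 lower with DC101. The shares of all clusters are the same. The RNA and DNA receptors Tlr7 and Tlr9 and the kinase gene Ikbke were lower in both.

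Other interferon-stimulated genes did not move as a block. Of 62 measured, 9 were called higher and 12 lower in tumor MC with placebo (median −0.13), against 11.3% and 8.29% of all clusters. With DC101, 18 were called higher and 10 lower (median 0.29), against 12.4% and 9.54% of all clusters. Among those higher in both were the chemokine gene Cxcl10, at 5.02 (SE 0.27) with placebo and 4.93 (SE 0.27) with DC101, Apol9b (3.996 and 4.68) and the GTPase gene Iigp1 (3.34 and 4.54). Apol9a read 7.21 to 8.37 on the tumor arrays and 4.59 to 5.80 on the peritoneal arrays. Peritoneal values of Cxcl10 (3.06 to 3.51) and Apol9b (2.16 to 2.80) lay near or below the median cluster, which leaves the sizes of their differences uncertain. Among those lower in both were Ifi209 (−3.30 and −2.40) and Ifi208 (−2.86 and −1.70), of the family of DNA-binding HIN proteins. Trim34a (−2.88 and −2.41), Phf11a (−2.72 and −1.60), Phf11b (−2.62 and −1.75) and Ms4a4c (−2.13 and −2.48) were also lower in both. Tumor values of Ifi208 (1.97 to 2.52) lay below the median cluster (3.48), which leaves the sizes of its differences uncertain. Of 8 genes of interferon gamma and its preferred targets, 2 were called higher and 2 lower with placebo. With DC101, 5 were higher and 1 lower, beside the same shares of all clusters.

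**Figure D3:**
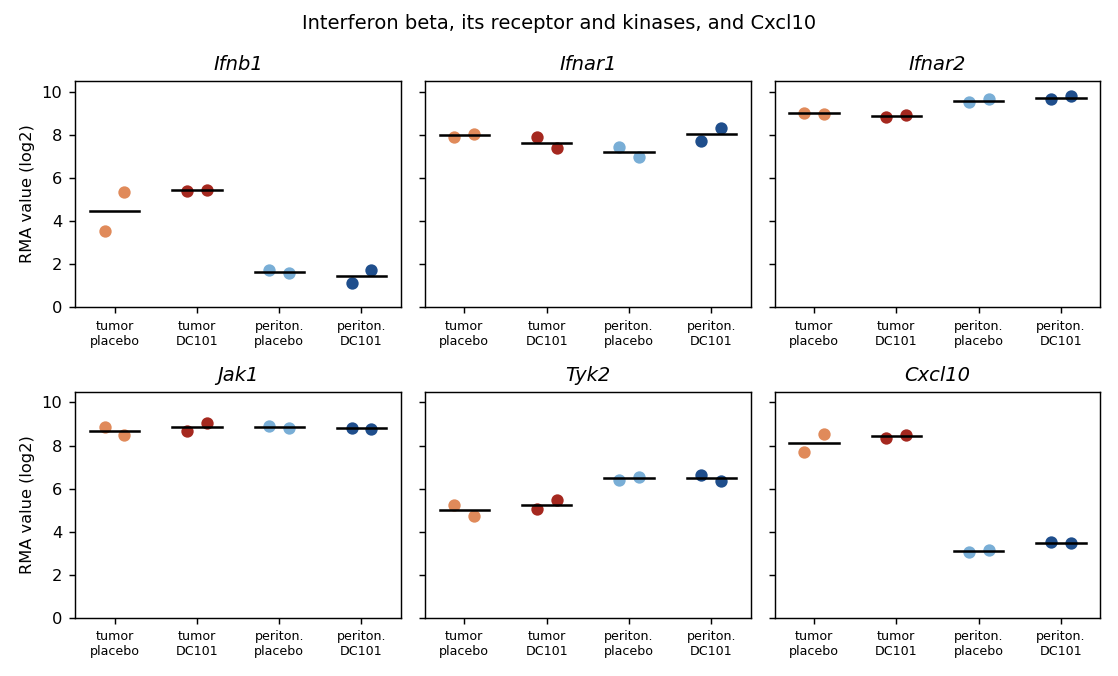
RMA values (log2, vertical axis) of Ifnb1, the receptor chains, the kinases Jak1 and Tyk2, and Cxcl10 in the 4 groups. Points are arrays and bars are group means. Ifnb1 and Cxcl10 are higher on every tumor array than on any peritoneal array, with 3.54 the lowest tumor value of Ifnb1, and Tyk2 is lower on every tumor array.

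Markers of other cells differed between the compartments as well. Over all clusters, 11.3% were called higher in tumor MC and 8.29% lower with placebo, and 12.4% and 9.54% with DC101. Of 8 epithelial and fibroblast markers, 6 were called higher in tumor MC in both treatments and 0 lower. With placebo, Krt8, Krt18, Col1a1, Col3a1, Pdgfra and Dcn lay at 3.36 to 5.49. Epcam and Cdh1 lay below 0 with placebo, the lower of them at −2.07, and were not called. With DC101, 1 of the 8 was below 0, at −1.83. All 5 B cell markers were lower in tumor MC in both treatments, with medians of −6.14 and −5.65. Of 10 macrophage markers, 4 were lower and 0 higher with placebo, and 8 lower and 1 higher with DC101, and of 12 T and NK cell markers, 4 were lower with placebo and 5 higher with DC101. Neutrophil markers were lower for 5 of 6 with placebo and 4 of 6 with DC101, and eosinophil markers for 2 of 5 and 3 of 5. Conventional dendritic cell markers were lower for 4 of 4 with placebo and 1 of 4 with DC101, and 0 were higher in these 3 lists. Mast cell markers were called higher for 1 of 12 with placebo and 4 of 12 with DC101. The part of these cells in the interferon differences was not tested, and the tissue and the way cells were released from it cannot be told apart.

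The study then asked how anti-VEGFR2 therapy changes MC in the tumor. By limma, 0 of the 29 genes were called between DC101 and placebo in tumor MC, as was 0% of all clusters, while 6 had an unadjusted p under 0.05 (5.04% of all clusters). Values were above 0 for 27 of 29 genes (45.3% of all clusters), with a median of 0.51 against −0.03 over all clusters. At the study's thresholds (unadjusted p under 0.05 and a log2 difference of at least 1), 2 genes were higher, Oas2 and Stat2 (0.382% of all clusters). For 17 genes both DC101 arrays lay above both placebo arrays and for 0 below them, against 15.7% and 20.6% of all clusters. Macrophage markers had values below 0 for 9 of 10 in the same contrast (median −0.45, 0 called, 3 at an unadjusted p under 0.05), and their part in the result was not tested.

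Stat2, the transactivating subunit of ISGF3, read 5.70 and 5.97 with placebo and 6.99 and 6.70 with DC101 in tumor MC, a difference of 1.01 (SE 0.22, adjusted p = 0.78). In the peritoneum it read 6.15 and 6.36, and 6.17 and 6.42. Oas2 read 5.53 and 6.21 with placebo and 7.28 and 6.86 with DC101 in tumor MC, a difference of 1.20 (SE 0.29, adjusted p = 0.84). Placebo and DC101 arrays did not overlap for either gene. Without 1 array the difference of Oas2 ran from 0.86 to 1.54 and that of Stat2 from 0.86 to 1.16. Next in size were Mx2 (0.87, adjusted p = 0.89), Trim30a (0.82, adjusted p = 0.97), Ifit3 (0.81, adjusted p = 0.89) and Usp18 (0.70, adjusted p = 0.9996), whose array values are given above. Of the genes that stood highest over the peritoneum, Ifit1 was at 0.45 (95% interval −0.39 to 1.28), Rsad2 at 0.41 (−0.24 to 1.05), Isg15 at 0.51 (−0.24 to 1.25) and Ifit2 at −0.27 (−0.84 to 0.29). All 4 intervals include 0, and those of Ifit1, Rsad2 and Isg15 also include a doubling.

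The size of these values depended on which tumor placebo array was used. Tumor placebo replicate 1 gave the lowest of the 4 tumor values for 26 of the 29 genes. Replicate 2 of the same group lay above it for 28 genes (50.5% of all clusters), with a median gap of 0.67, larger than the 0.51 between the treatments. In the tumor DC101 group, replicate 2 lay above replicate 1 for 9 genes (50.4% of all clusters), with a median gap of −0.08. Without tumor placebo replicate 1, the median DC101 minus placebo difference was 0.14 and 22 genes were above 0. Without replicate 2, it was 0.86 and 27 were above 0. Set against replicate 2 alone, both DC101 arrays were higher for 17 genes and lower for 4. For the counts of lowest values, those without 1 placebo array and those against replicate 2 alone, no share over all clusters was computed.

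**Figure D4:**
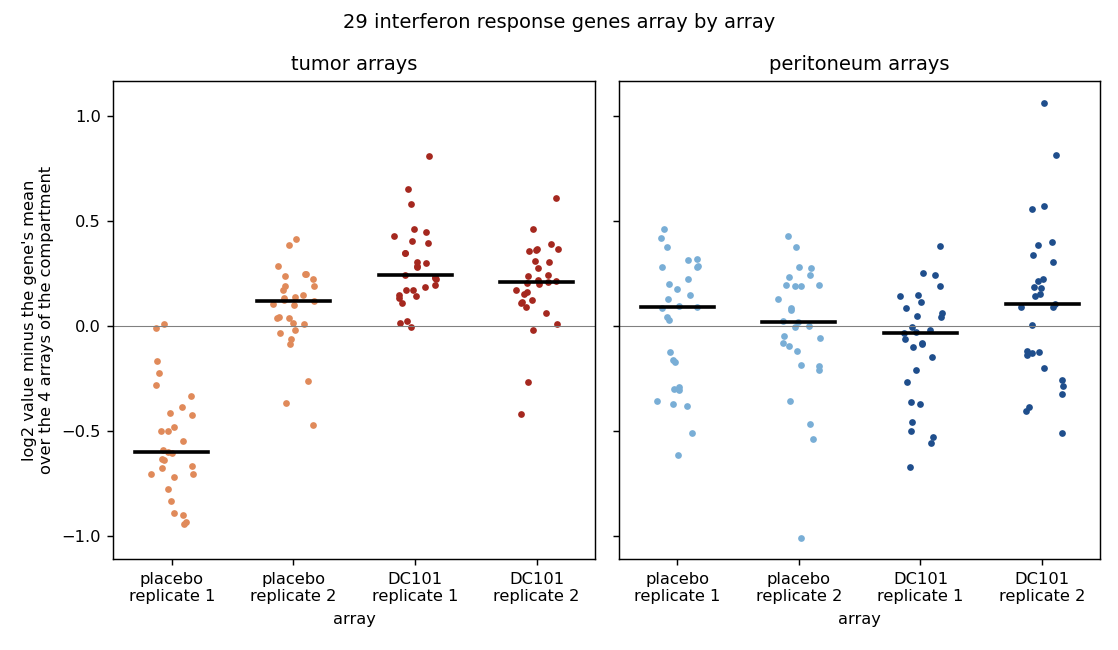
Each of the 29 genes' log2 value on an array minus the gene's mean over the 4 arrays of that compartment (vertical axis), for the arrays of tumor and peritoneal MC (horizontal axis). Points are genes, spread sideways at random, and black bars are medians. Tumor placebo replicate 1 sits below the other tumor arrays, and is the lowest for 26 of 29 genes.

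Ifnb1 showed the same order, at 3.54 on tumor placebo replicate 1 and 5.35 to 5.45 on the other 3 tumor arrays. Of 62 other interferon-stimulated genes, 50 were higher on replicate 2 than on replicate 1 (median gap 0.34), and of 8 interferon gamma genes, 7 were (median gap 0.94). Cell markers moved between the same arrays. All 12 mast cell markers were lower on replicate 2 than on replicate 1, with medians of 9.44 and 10.28. Of 10 macrophage markers, 10 were higher on replicate 2 (medians 7.44 and 7.03), and of 12 T and NK cell markers, 9 were (5.05 and 4.11). Mast cell markers also differed between the tumor DC101 arrays, with medians of 10.18 on replicate 2 and 9.34 on replicate 1. Between these DC101 arrays, the median gap (replicate 2 minus replicate 1) of the response genes was −0.08. For macrophage markers it was 0.09, against 0.24 between the placebo arrays. For T and NK cell markers it was 0.12, against 0.82 between the placebo arrays. The part of these markers in the result was not tested.

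In peritoneal MC, 0 of the 29 genes were called between DC101 and placebo by limma, against 2.48% of all clusters called higher and 2.10% lower. At an unadjusted p under 0.05 there were 4 (18.9% of all clusters). Values above 0 were found for 13 genes (47.6% of all clusters), with a median of −0.07 against −0.02 over all clusters. Both DC101 arrays lay above both placebo arrays for 4 genes and below them for 8, against 21.5% and 24.6% of all clusters. At the study's thresholds, Oasl1 and Oas2 were higher (3.07% of all clusters).

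Oasl1 was at 1.32 (SE 0.44, adjusted p = 0.14), from peritoneal arrays of 3.96 and 3.26 with placebo and 4.52 and 5.33 with DC101. Oas2 was at 1.05 (SE 0.29, adjusted p = 0.081), from 6.54 and 6.51 with placebo and 7.29 and 7.86 with DC101. Oas2 was thus the gene whose DC101 arrays lay above the placebo arrays by about 1 in both compartments, though it was called in neither. Bst2 was at −0.80 (SE 0.27, adjusted p = 0.15) and Ifi35 at −0.65 (SE 0.20, adjusted p = 0.10), each with both DC101 arrays below both placebo arrays. With a prior that follows intensity, Oas2 (adjusted p = 0.045) and Ifi35 (adjusted p = 0.046) passed. Parp14, at 6.98 and 7.08 with placebo and 7.19 and 7.84 with DC101, differed by 0.48 (adjusted p = 0.38), and Xaf1 by −0.47 (adjusted p = 0.41). In tumor MC Parp14 read 6.38 and 6.84 with placebo and 7.14 and 7.07 with DC101. Ifit1 was at −0.13 (95% interval −0.96 to 0.70), Rsad2 at 0.33 (−0.31 to 0.98) and Isg15 at 0.33 (−0.41 to 1.08).

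Some genes around the pathway were called in the peritoneum, against 2.48% of all clusters called higher and 2.10% lower. Of 23 receptor and signalling genes, 1 was called higher and 1 lower. Of 12 sensors and adaptors, 0 were higher and 1 lower, and of 8 interferon gamma genes, 0 were higher and 2 lower. Whether these lists differed from the response genes was not tested. Tlr3, a receptor for double-stranded RNA, fell by 2.36, and Irf8, a factor of myeloid and dendritic cells, fell by 1.81, while Socs3 rose by 0.95. Of the 62 other interferon-stimulated genes, Ifi205 (−2.27), Ifi208 (−1.44), Sp100 (−1.23) and Isg20 (−1.11) fell and Tapbp (1.02) rose. Peritoneal values of Sp100 (1.70 to 3.43) lay below the median cluster (3.48), which leaves the size of its difference uncertain. Of the interferon gamma list, Gbp8 (−2.71) and Cxcl9 (−2.11) fell. Markers of other cells moved in the same arrays. T and NK cell markers were lower for 8 of 12 (median −2.29), B cell markers for 2 of 5, and eosinophil markers higher for 3 of 5. Macrophage markers were higher for 2 of 10 and lower for 2 (median 0.91), from Marco, which fell by 3.53, to Mrc1, which rose by 2.76. The part of these markers in the result was not tested.

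**Figure D5:**
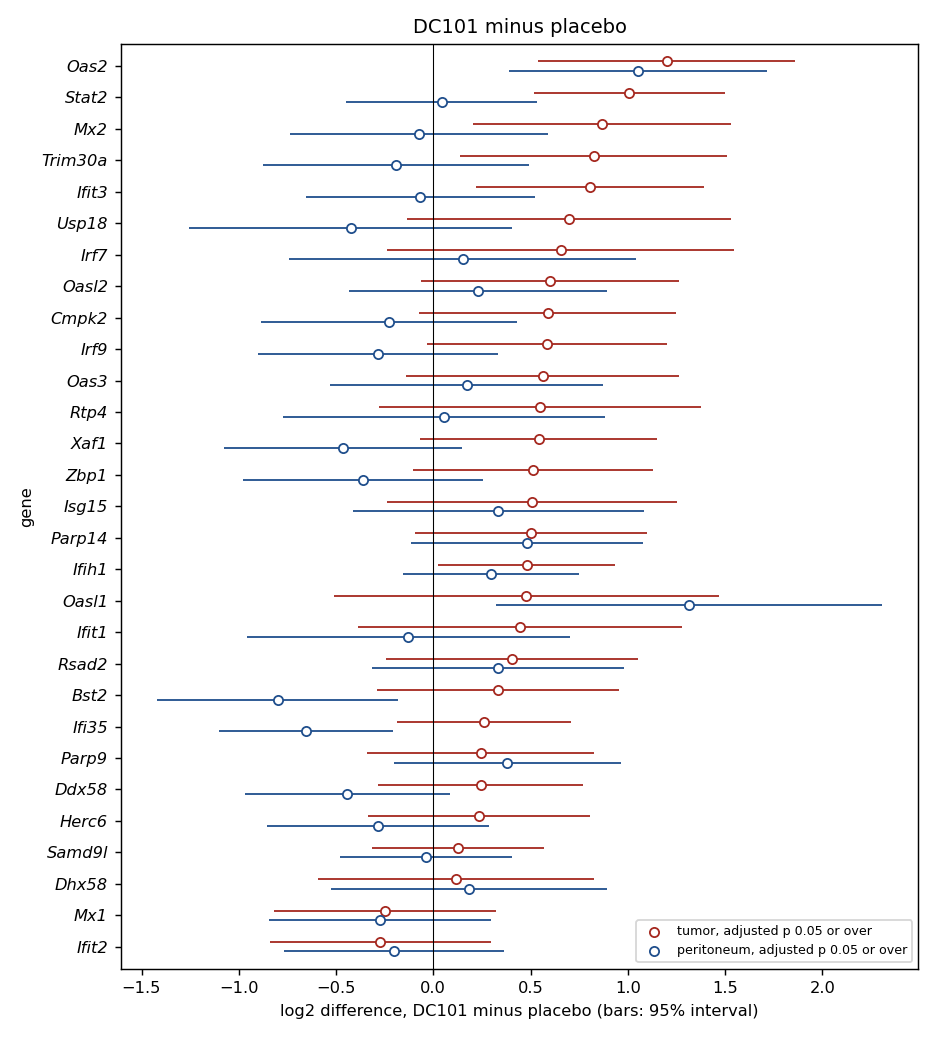
DC101 minus placebo log2 difference (horizontal axis) for each of the 29 genes (vertical axis) in tumor and peritoneal MC, with 95% intervals from limma. No point passed an adjusted p of 0.05, so all are open. Tumor values are above 0 for 27 genes, with Oas2 (1.20) and Stat2 (1.01) the largest, and peritoneal values for 13.

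The difference between the responses was tested as an interaction (tumor response minus peritoneal response). No gene of the 29 was called, against 0.353% of all clusters called higher and 0.452% lower, and 7 had an unadjusted p under 0.05 (13.1% of all clusters). Values were above 0 for 25 genes (49.3% of all clusters), with a median of 0.50 against −0.01 over all clusters. At the study's thresholds 3 were higher (3.54% of all clusters). These were Bst2 at 1.13 (SE 0.39, adjusted p = 0.25), Trim30a at 1.02 (SE 0.43, adjusted p = 0.35) and Xaf1 at 1.01 (SE 0.38, adjusted p = 0.30). The median was 0.09 without tumor placebo replicate 1 and 0.83 without replicate 2. The interaction is also the difference between the 2 tumor minus peritoneum comparisons, so the larger number of calls with DC101 than with placebo was not shown to be a difference for any single gene.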

How the data were processed

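The deposited table held log2 expression values that the authors made in R from scanned array images, by RMA according to the submitters' processing notes. Version, options and genome build were not given in the sources used here. Quantile normalization within RMA removes a change shared by all genes, and no detection call marks which low values exceed background.

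Each of the 8 value columns was matched to a sample by its label. Clusters were named from the platform annotation, and where a gene had several clusters with 1 symbol, the one with the highest mean was used. From the deposited log2 values, limma 3.58.1 in R 4.3.3 fitted 1 mean per group to all 24111 clusters, which left 4 residual degrees of freedom and a prior of 4.93, and gave 5 contrasts: DC101 against placebo in each compartment, their interaction, and tumor against peritoneum in each treatment. The fit was tested on simulated data. The study's thresholds were read as an unadjusted p under 0.05 and a log2 difference of at least 1 in size. Precision is limited by having 2 arrays per group.

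The members and gene lists were chosen with earlier results of these data known. Values on every array are given for 22 genes, those called in any contrast or among the 6 largest differences of a DC101 contrast, and the other 7 are summarised. Of each pathway list, some of the called genes are named, not always the largest, and Ifnb1, the receptor chains, Jak1 and Tyk2 always. Promoter windows came from RefSeq (GRCm38.p6). None was used for Mx1, Mx2, Oas2, Usp18, Dhx58, Zbp1, Parp9, Parp14 and Rtp4. The fits were repeated with a prior that follows intensity or is robust, without moderation, after cyclic loess, with array weights, fewer clusters or the mean of all clusters of a gene, within each compartment alone, with a replicate block and without each array in turn.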

Additional observations from a re-analysis of the deposited data

Results flagged for a closer look

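Over all clusters, the interaction in limma called a DC101 response that differed between tumor and peritoneal MC for 85 clusters in one direction and 109 in the other. None was among the 29 response genes, and 2 were in the lists of other interferon pathway genes. Ifi205, of the interferon-inducible HIN family, read 8.20 and 8.85 with placebo and 9.25 and 9.14 with DC101 in tumor MC, and 8.45 and 8.41 with placebo and 6.12 and 6.20 with DC101 in peritoneal MC. Its interaction was 2.94 (SE 0.34, adjusted p = 0.011). Gbp8, an interferon-inducible guanylate-binding protein gene, read 2.37 and 3.18 with placebo and 3.12 and 4.06 with DC101 in tumor MC, and 4.995 and 4.91 with placebo and 1.74 and 2.75 with DC101 in peritoneal MC. Its interaction was 3.52 (SE 0.59, adjusted p = 0.040), and its values on several arrays lay below the median cluster (3.48).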

How the results depend on the processing

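Without moderation of the spread, 6 genes were called between tumor and peritoneum with placebo (11 in the fit reported) and 10 with DC101 (17), all among those reported. With an intensity trend prior, 2 genes were called for DC101 in the peritoneum, and at the study's thresholds 2 in tumor MC, 2 in the peritoneum and 3 in the interaction, against 0 each at an adjusted p. Leaving out 1 array, the median DC101 difference in tumor MC ran from 0.14 (without placebo replicate 1) to 0.86 (without placebo replicate 2), the median interaction from 0.089 to 0.83, and the median tumor minus peritoneum difference with placebo from 0.31 to 0.99. Genes called with placebo ran from 7 (without either peritoneal placebo array) to 13 (without tumor placebo replicate 1). No called gene changed direction under any alternative, and the cause of these shifts was not tested.

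With the replicate number as a block, 12 genes were called between compartments with placebo and 17 with DC101, and 0 in each of the other contrasts. The added call was Xaf1 (adjusted p = 0.049 in limma). Same-numbered arrays did not deviate together (correlations of −0.16 to 0.017), so the numbers were not taken to pair the arrays. With the tumor numbers crossed, a choice made after seeing the data, 8 and 14 genes were called between compartments. With 2 arrays per group, differences of about 1 on the log2 scale often missed the threshold, and a gene without a call is not shown to be unchanged.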
